A study of Mus musculus with 8 samples.

Results

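Transcripts of 9 genes grouped as B cell coreceptors, inhibitory receptors and related proteins were followed through 8 polyA-selected RNA libraries: Cd81, Cr2, Cd22, Cd72, Fcgr2b, Fcrla, Siglecg, Ptpn6 and Ceacam1. The members are the rows of the gene table with exactly these symbols, 9 of 24054 named rows, and all 9 passed the filter on low counts that left 11291 genes to test. Both stable lines studied came from the murine lymphoma WEHI-231, which resembles an immature B cell. One is named for the microRNA miR-148a and the other is its control, and whether either line is a clone is not given in the sources used here. There were 4 groups of 2 libraries: the miR-148a line after 14 h of anti-IgM (2 ug/ml), the same line without stimulation, the control line with the same anti-IgM, and the control line without stimulation. Anti-IgM is an antibody that crosslinks the receptor. Each group has a replicate 1 and a replicate 2, and the column names of the table give each replicate number a prefix of its own. The labels do not say that replicates came from separate cultures, and the p-values therefore reflect a spread that may be technical.

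The B cell receptor signals through immunoreceptor tyrosine-based activation motifs in CD79A and CD79B, and its strength is set partly by neighbouring membrane proteins. The coreceptor complex that holds CD21 (from Cr2) and CD81 lowers the threshold when antigen carries complement fragments. Inhibitory receptors such as CD22, CD72, the IgG receptor FcgammaRIIB (from Fcgr2b), Siglec-G and CEACAM1 carry tyrosine-based inhibitory motifs that, once phosphorylated, recruit the phosphatases SHP-1 (from Ptpn6) or SHIP.

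Total counts ran from 5810227 to 18660373 per library, and 3 counts corresponded to 0.166 to 0.502 CPM, where CPM is the count scaled to a common library size after TMM, a factor that aligns libraries on their bulk of genes. The 6 B cell markers with a row (Cd79a, Cd79b, Ms4a1, Pax5 and Ebf1 among them) lay between 48.2 and 895 CPM in every library. Each of the 5 T cell markers reached at most 0.348 CPM, the NK cell markers were at 0 counts in all libraries, and erythroid and fibroblast markers reached at most 0.0554 and 0.615 CPM. The 9 myeloid markers with a row summed to 13.6 to 14.3 CPM in the anti-IgM and 2.84 to 3.83 CPM in the unstimulated miR-148a group, and to 9.71 to 12.96 CPM in the anti-IgM and 4.96 to 7.15 CPM in the unstimulated control group. Of these 9, Itgam reached 8.86 CPM, Fcgr1 lay between 1.84 and 5.65 CPM, Emr1 reached 1.39 CPM and Csf1r 1.29 CPM, while Lyz2, S100a8 and S100a9 had 0 counts in every library. Fewer cells of a type and less RNA per cell cannot be told apart in such bulk samples. The row for Mir148a held 1 count, in an unstimulated library of the miR-148a line, and 0 in the others, and polyA selection does not capture a mature microRNA, so the label of that line was not checked here.

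Because one line is named for miR-148a, the members' messages were searched for its seed match. The mature microRNA (RefSeq, GRCm38.p6, chromosome 6, minus strand) is printed with its seed, bases 2 to 8, in capitals.

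mmu-miR-148a-3p: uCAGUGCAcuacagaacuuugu

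The letters searched were TGCACTGA (8mer), TGCACTG (7mer-m8) and GCACTGA (7mer-A1) on the transcript strand of the longest annotated 3' UTR of each gene (GENCODE M21). A match stood in 2 of 9 members, Cd72 and Siglecg, both 7mer-m8, against 18.9% of 19681 genes of the table with any match and 12.8% with a 7mer-m8 or 8mer. The matches are printed in capitals with the bases around them, at positions 484 to 490 of a 1583-base UTR in Cd72 (chromosome 4) and 212 to 218 of a 284-base UTR in Siglecg (chromosome 7).

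Cd72: tgtccagcaagTGCACTGtccttacagggt
Siglecg: ctccccacatgTGCACTGtggctcatgcct

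The other 7 members, Ceacam1, Cr2 and Fcgr2b among them, held no match in these windows, and Cr2 has the longest window of all at 3028 bases. A match is a description of the letters and not a site of action.

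Levels per length spanned a wide range. Scaled to the exon length of GENCODE M21, Ptpn6, the phosphatase that the inhibitory receptors recruit, was highest in every group, at 226 ± 15.8 CPM per kb in the unstimulated control group (SD, n = 2). It was followed there by Cd72 (118 ± 9.44 CPM per kb), Cd22 (46.6 ± 3.04 CPM per kb), Cd81 (35.0 ± 1.39 CPM per kb), Fcrla (23.1 ± 3.07 CPM per kb), Ceacam1 (15.7 ± 0.451 CPM per kb), Fcgr2b (8.42 ± 0.843 CPM per kb), Cr2 (3.33 ± 0.107 CPM per kb) and Siglecg (0.780 ± 0.413 CPM per kb). Every neighbouring pair in that order differed by more than the larger of its SDs. In the anti-IgM miR-148a group the middle of the order did not separate: Fcrla stood at 64.4 ± 13.2 CPM per kb, between Cd22 at 69.4 ± 2.35 and Cd81 at 53.8 ± 2.12 CPM per kb. Siglecg (2.32 ± 0.330 CPM per kb) there stood above Cr2 (1.42 ± 0.601 CPM per kb). The order depends on the exon length used, since the table does not separate isoforms.

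**Figure D1:**
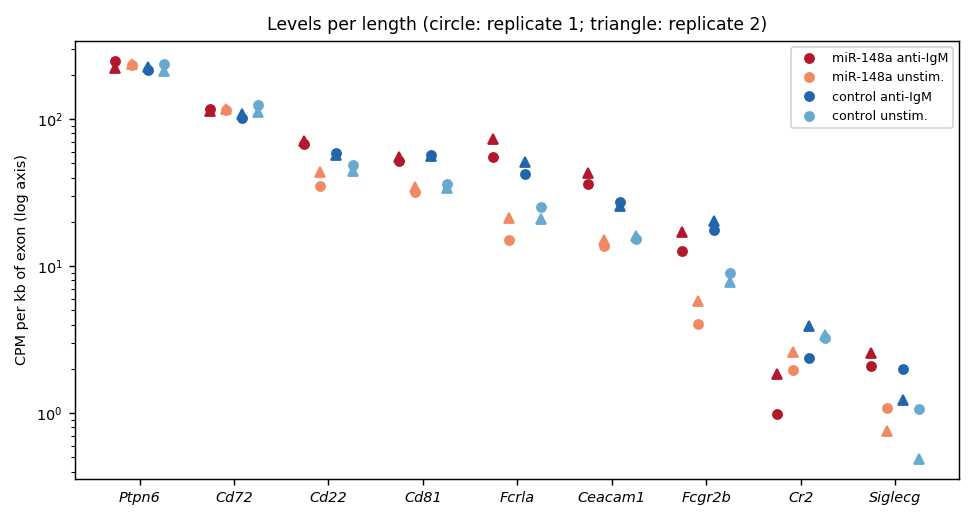
Level of each member per kb of annotated exon (log axis) in the 8 libraries, by group in colour, with circles for replicate 1 and triangles for replicate 2. Ptpn6 and Cd72 lead in every library and Cr2 and Siglecg are lowest, with Siglecg above Cr2 in the anti-IgM miR-148a group.

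With anti-IgM the transcripts of Fcgr2b, Fcrla, Ceacam1 and the coreceptor part Cd81 rose in both lines, by 1.62-fold for Cd81 up to 3.55-fold for Fcrla. Cd22 and Siglecg rose in the miR-148a line. Ptpn6, Cd72 and Cr2 passed in neither line. In the miR-148a line 6 of 9 members rose (Cd81, Cd22, Fcgr2b, Fcrla, Siglecg, Ceacam1) and none fell, against 14.7% of all tested genes higher and 14% lower. In the control line 4 of 9 rose (Cd81, Fcgr2b, Fcrla, Ceacam1) and none fell, against 9.6% higher and 7.45% lower. The median log2 fold change of the members was 0.82 in the miR-148a line, against 0.0017 over all tested genes, and 0.69 in the control line, against 0.013 over all tested genes. Calls are from edgeR's quasi-likelihood test with Benjamini-Hochberg adjustment over 11291 genes at 0.05. With the replicate number as a block, 6 members rose and 1 (Cr2) fell in the miR-148a line and 6 rose in the control line, where 46.1% and 34.8% of all genes were called in either direction. The summed myeloid markers given above were also higher with anti-IgM in both lines, and their part in these rises was not tested.

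**Figure D2:**
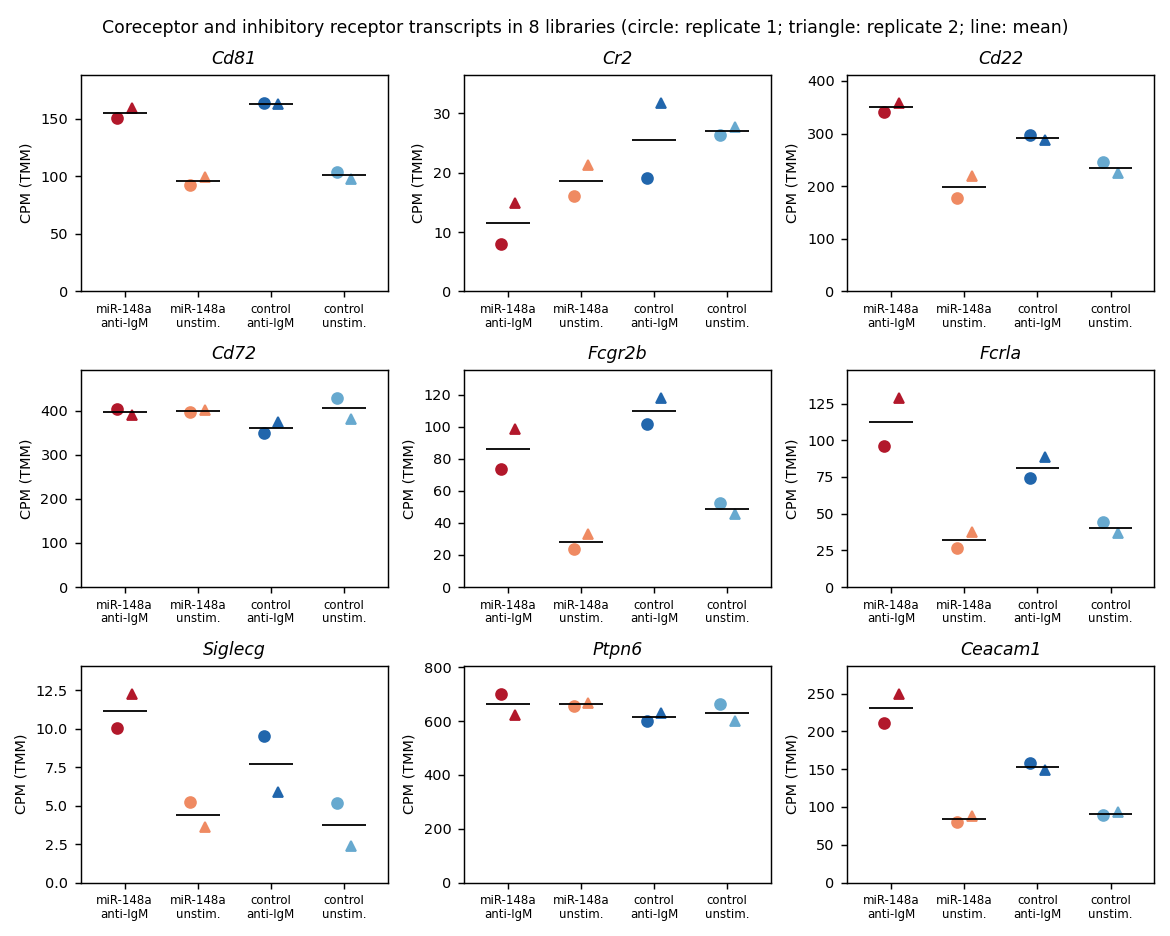
CPM (TMM scaled, linear axes from 0) of the 9 members by group, with circles for replicate 1, triangles for replicate 2 and lines for the mean of 2 libraries. Fcgr2b, Fcrla, Ceacam1 and Cd81 lie higher in each anti-IgM library than in any unstimulated library of either line, and Ptpn6 overlaps between conditions within each line.

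Of the coreceptor, Cd81 encodes a tetraspanin, a membrane protein that organises its partners at the cell surface. It had 151 and 159 CPM in the anti-IgM and 92.5 and 99.1 CPM in the unstimulated miR-148a libraries (replicates 1 and 2), and 164 and 162 CPM in the anti-IgM and 104 and 97.9 CPM in the unstimulated control libraries. The anti-IgM libraries were higher in each line without overlap, by a log2 fold change of 0.69 ± 0.10 in the miR-148a line (SE, edgeR adjusted p = 0.00137) and 0.69 ± 0.10 in the control line (edgeR adjusted p = 0.00283). The difference between those responses was 0.00075 on the log2 scale, with a 95% interval of -0.30 to 0.31.

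Cr2 encodes the complement receptors CD21 and CD35 in mice. It had 8.06 and 14.9 CPM in the anti-IgM and 16.0 and 21.2 CPM in the unstimulated miR-148a libraries, and 19.1 and 31.7 CPM in the anti-IgM and 26.4 and 27.6 CPM in the unstimulated control libraries. Replicate 2 was the higher one in all 4 groups. The miR-148a libraries did not overlap with anti-IgM and without it, while the control libraries did. The response of Cr2 was -0.64 ± 0.30 on the log2 scale in the miR-148a line (edgeR adjusted p = 0.143) and -0.05 ± 0.27 in the control line (edgeR adjusted p = 0.923), neither of which passed. Without replicate 1 of the stimulated miR-148a line the response of Cr2 there was -0.32, and without replicate 2 it was -1.21. With the replicate block Cr2 fell by 0.66 in the miR-148a line (edgeR adjusted p = 0.00756).

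Among the inhibitory receptors, Fcgr2b encodes FcgammaRIIB, which dampens the receptor when IgG complexes bridge both. Fcgr2b had 73.7 and 98.7 CPM in the anti-IgM and 23.4 and 33.3 CPM in the unstimulated miR-148a libraries, and 102 and 118 CPM in the anti-IgM and 52.2 and 45.3 CPM in the unstimulated control libraries. No anti-IgM library overlapped an unstimulated one of its line. Fcgr2b rose 3.05-fold in the miR-148a line (log2 fold change 1.61 ± 0.20, edgeR adjusted p = 0.000872) and 2.25-fold in the control line (1.17 ± 0.19, edgeR adjusted p = 0.0052), the largest rise of a member in the control line. Its counts were not whole in all 8 libraries, and Fcgr3, its close relative in the same cluster, reached at most 5.26 CPM, so the split of reads between them is uncertain.

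Fcrla encodes an Fc receptor-like protein that stays inside B cells, mainly in the endoplasmic reticulum. It had 96.1 and 129 CPM in the anti-IgM and 26.3 and 37.2 CPM in the unstimulated miR-148a libraries, and 74.2 and 88.6 CPM in the anti-IgM and 44.1 and 36.6 CPM in the unstimulated control libraries. The groups did not overlap in either line. Fcrla rose 3.55-fold in the miR-148a line (log2 fold change 1.83 ± 0.20, edgeR adjusted p = 0.000675), the largest rise of any member in either line. In the control line it rose 2.02-fold (1.01 ± 0.20, edgeR adjusted p = 0.0108). That call was lost without replicate 2 of the control line with anti-IgM (0.87, edgeR adjusted p = 0.0585) or without replicate 2 of the unstimulated control group (0.88, edgeR adjusted p = 0.0782).

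Ceacam1 encodes an adhesion molecule with inhibitory motifs that recruit SHP phosphatases. It had 211 and 249.6 CPM in the anti-IgM and 80.1 and 87.4 CPM in the unstimulated miR-148a libraries, and 158 and 148 CPM in the anti-IgM and 89.1 and 92.8 CPM in the unstimulated control libraries. Both anti-IgM libraries of the miR-148a line stood above both of the control line. Ceacam1 rose 2.75-fold in the miR-148a line (log2 fold change 1.46 ± 0.11, edgeR adjusted p = 0.000345) and 1.68-fold in the control line (0.75 ± 0.11, edgeR adjusted p = 0.00399). Ceacam2, a close paralogue, reached at most 2.12 CPM, and Ceacam1 counts were not whole in all 8 libraries, so reads may have been shared.

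The sialic acid-binding lectins Cd22 and Siglecg differ in abundance. Cd22, the main Siglec of mouse B cells, had 342 and 358 CPM in the anti-IgM and 177 and 219 CPM in the unstimulated miR-148a libraries, and 296 and 288 CPM in the anti-IgM and 246 and 224 CPM in the unstimulated control libraries. Cd22 rose in the miR-148a line (0.82 ± 0.12, edgeR adjusted p = 0.0015). In the control line its libraries did not overlap either, but the difference did not pass (0.31 ± 0.12, edgeR adjusted p = 0.0983), and it passed with the replicate block (edgeR adjusted p = 0.0174). Siglecg, which restrains calcium signals mainly in B-1 cells, had 10.0 and 12.3 CPM in the anti-IgM and 5.21 and 3.61 CPM in the unstimulated miR-148a libraries, and 9.54 and 5.91 CPM in the anti-IgM and 5.15 and 2.35 CPM in the unstimulated control libraries. Siglecg rose in the miR-148a line (1.35 ± 0.37, edgeR adjusted p = 0.0242), where leaving out replicate 2 of the anti-IgM group (edgeR adjusted p = 0.144), or replicate 1 (edgeR adjusted p = 0.0578) or replicate 2 (edgeR adjusted p = 0.126) of the unstimulated group lost the call. The control line gave 0.95 ± 0.38 for Siglecg (edgeR adjusted p = 0.121), and 0.97 with the replicate block (edgeR adjusted p = 0.016). Single libraries moved that value: Siglecg was at 1.67 without replicate 1 of the unstimulated control group (edgeR adjusted p = 0.0452), at 0.53 without replicate 2 of that group (edgeR adjusted p = 0.382) and at 0.60 without replicate 1 of the stimulated control line (edgeR adjusted p = 0.421).

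Cd72, a lectin-like receptor that signals through SHP-1, had 404 and 389 CPM in the anti-IgM and 397 and 401 CPM in the unstimulated miR-148a libraries, and 349 and 374 CPM in the anti-IgM and 428 and 382 CPM in the unstimulated control libraries. Its response was -0.0098 on the log2 scale in the miR-148a line (95% interval -0.22 to 0.20) and -0.16 in the control line (95% interval -0.37 to 0.048). The control libraries did not overlap, with both anti-IgM ones lower, and the miR-148a libraries did. Ptpn6 itself had 701 and 623 CPM in the anti-IgM and 658 and 669 CPM in the unstimulated miR-148a libraries, and 602 and 632 CPM in the anti-IgM and 663 and 601 CPM in the unstimulated control libraries. The intervals of its response were -0.22 to 0.21 in the miR-148a line and -0.25 to 0.18 in the control line on the log2 scale.

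**Figure D3:**
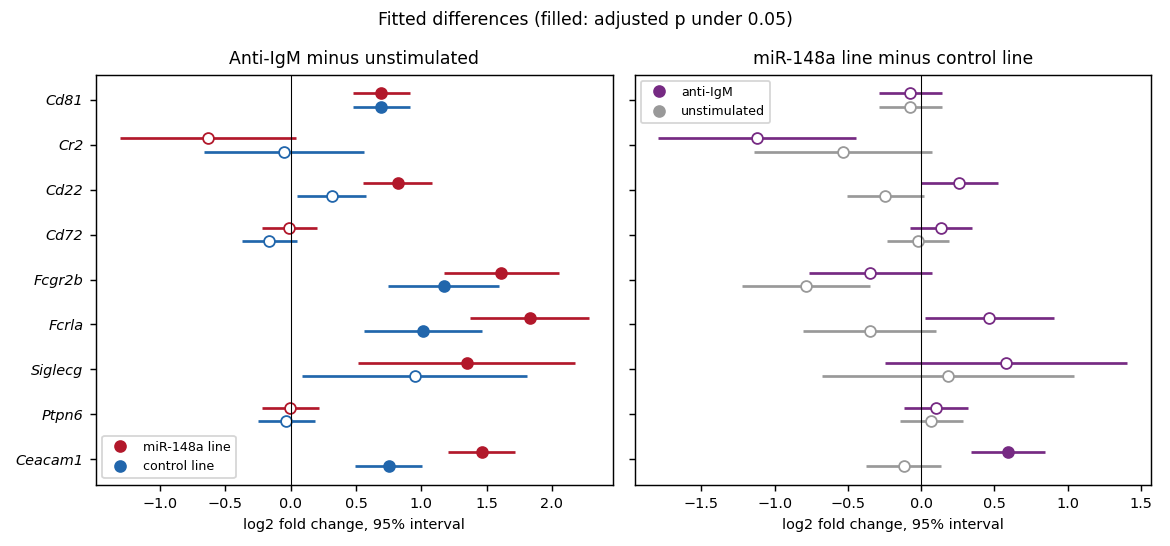
Fitted log2 fold changes of the 9 members with 95% intervals, anti-IgM minus unstimulated in each line (left) and the miR-148a line minus the control line in each condition (right), filled where the adjusted p is under 0.05. On the left 6 members are filled for the miR-148a line and 4 for the control line, and on the right Ceacam1 with anti-IgM is the filled point.

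Without stimulation the lines were compared directly. None of the 9 members passed by edgeR, against 0.248% of all genes higher and 0.239% lower in the miR-148a line, and at an unadjusted p under 0.05 there was 1, Fcgr2b, against 11.4% of all genes. Fcgr2b was at -0.78 ± 0.19 on the log2 scale (edgeR adjusted p = 0.131) and lower in both replicates. It passed by DESeq2 (adjusted p = 0.00734), without the filter on low counts (edgeR adjusted p = 0.0222) and with the replicate block (edgeR adjusted p = 0.00263). With that block Cr2 also passed, at -0.57 (edgeR adjusted p = 0.0319), so 2 of 9 members did, where 7.29% of all genes were called.

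With anti-IgM, the miR-148a line had more Ceacam1, at 0.59 ± 0.11 on the log2 scale (edgeR adjusted p = 0.0368), and it was the one member of 9 to pass, against 1.36% of all genes higher and 1.16% lower. Its difference was 0.42 between replicates 1 and 0.75 between replicates 2. The call was lost without any 1 of 7 libraries (edgeR adjusted p from 0.0589 to 0.227) and in a fit to the 4 anti-IgM libraries alone (edgeR adjusted p = 0.124), and was kept without replicate 1 of the stimulated miR-148a line (edgeR adjusted p = 0.0334). Cr2 was at -1.12 ± 0.30 (edgeR adjusted p = 0.0964), with -1.19 between replicates 1 and -1.06 between replicates 2. It was -0.67 without replicate 2 of the stimulated control line and -1.69 without replicate 2 of the stimulated miR-148a line. Cr2 passed by DESeq2 (adjusted p = 0.00903), without the filter (edgeR adjusted p = 0.0165) and with the replicate block (edgeR adjusted p = 0.00107). Fcrla was at 0.46 ± 0.19 (edgeR adjusted p = 0.247), or 0.23 without replicate 2 of the stimulated miR-148a line, and passed with the replicate block (edgeR adjusted p = 0.0302). The block thus called 3 of 9 members, where 16.1% of all genes were called. The 2 members with a seed match did not pass in either condition: Cd72 was at -0.02 without and 0.13 with anti-IgM, and Siglecg at 0.18 without and 0.58 with anti-IgM.

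The responses of the lines were compared through the interaction, which shares all 4 groups with the comparisons above. By edgeR 0 of 9 members passed, as did 0% of all genes, and DESeq2 called none of the members either. At an unadjusted p under 0.05 there were 3, Ceacam1 (0.71 ± 0.16 on the log2 scale, miR-148a line minus control line), Fcrla (0.82 ± 0.28) and Cd22 (0.51 ± 0.16), against 4.29% of all genes. All 3 had a larger response in the miR-148a line in both replicates, with values for Ceacam1 of 0.57 and 0.83. With the replicate block Ceacam1 passed (0.72 ± 0.12, edgeR adjusted p = 0.0414), where 0.0974% of all genes were called.

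Fcrla and Fcgr2b are neighbours on chromosome 1. In GRCm38 Fcrla lies at chr1:170917576-170927583 and Fcgr2b at chr1:170958617-170976547, both on the minus strand with 31.0 kb between them. Their windows around the annotated start (250 bases before to 50 after, RefSeq, GRCm38.p6) are printed with that of Ceacam1. It was the only member called between the stimulated lines by edgeR without the replicate block, and that call depended on single libraries. Capitals mark matches on either strand to ATTTGCAT (octamer), GAGGAAGT (PU.1), GTAAACA (FOXO), GAAANNGAA (IRF), GGGNNTTCC (kappaB), CCCNNGGG (EBF), TTCNNNGAA (STAT) or CACGTG (E-box).

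Fcrla (chr1:170927534-170927833, minus): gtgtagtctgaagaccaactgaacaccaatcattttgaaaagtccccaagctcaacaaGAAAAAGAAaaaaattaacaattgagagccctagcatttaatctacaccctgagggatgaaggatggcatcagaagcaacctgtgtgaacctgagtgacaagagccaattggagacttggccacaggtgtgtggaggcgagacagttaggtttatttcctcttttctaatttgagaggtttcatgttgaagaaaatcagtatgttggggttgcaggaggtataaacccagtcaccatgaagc
Fcgr2b (chr1:170976022-170976321, minus): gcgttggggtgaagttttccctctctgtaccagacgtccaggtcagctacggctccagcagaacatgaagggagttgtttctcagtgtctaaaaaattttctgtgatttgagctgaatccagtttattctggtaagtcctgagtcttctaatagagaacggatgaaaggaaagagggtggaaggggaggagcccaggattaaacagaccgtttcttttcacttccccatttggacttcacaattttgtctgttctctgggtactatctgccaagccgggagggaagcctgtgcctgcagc
Ceacam1 (chr7:25477576-25477875, minus): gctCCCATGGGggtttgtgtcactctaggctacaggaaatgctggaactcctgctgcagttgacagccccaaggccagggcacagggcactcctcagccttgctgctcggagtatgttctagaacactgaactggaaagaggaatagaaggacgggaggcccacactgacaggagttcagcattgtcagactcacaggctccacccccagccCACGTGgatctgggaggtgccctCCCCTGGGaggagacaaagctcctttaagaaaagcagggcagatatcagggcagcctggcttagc

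Fcrla had 1 IRF match, 192 bases before the start, Fcgr2b had no match, and Ceacam1 had 2 EBF matches and 1 E-box match. Of 32851 promoter windows of the same length, 8.56% held the IRF letters, 13.7% the EBF letters and 7.15% the E-box letters. Over the 10 windows of the 9 members the EBF letters stood in 3 (Cd81, Cd22, Ceacam1), the PU.1 letters in 1 (Cd72) against 3.2% of all windows, and the octamer (1.74%), FOXO (3.65%), kappaB (5.82%) and STAT (8.3%) letters in none. A missing match says only that these letters are not in this window.

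Other genes of that stretch were examined after the values of the members were known. Of 7 genes within 200 kb of Fcgr2b that passed the filter, the members Fcrla and Fcgr2b rose in both lines, as given above. Among the others only Atf6, a stress sensor of the endoplasmic reticulum, passed as higher in both lines. Over all tested genes 14.7% were higher in the miR-148a line and 9.6% in the control line. Atf6 was at 0.72 ± 0.12 in the miR-148a line (edgeR adjusted p = 0.00264) and 0.74 ± 0.12 in the control line (edgeR adjusted p = 0.00513). Fcgr4, an activating IgG receptor, passed in the control line (1.88 ± 0.56, edgeR adjusted p = 0.0492) at levels of at most 3.85 CPM. In the miR-148a line Fcgr4 was at 1.58 ± 0.73 and did not pass. Fcgr3, at most 5.26 CPM, was at 0.62 ± 0.30 in the miR-148a line and 0.94 ± 0.32 in the control line. Dusp12, which lies between Atf6 and Fcrla, was at -0.31 ± 0.15 in the miR-148a line and -0.35 ± 0.14 in the control line. Sdhc was at 0.07 ± 0.11 in the miR-148a line and -0.05 ± 0.11 in the control line. Fcgr3, Dusp12 and Sdhc passed in neither line.

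The counts of Fcrla relative to Fcgr2b, taken within each library and so free of any scaling, were close between replicates and did not overlap between the lines. Replicates 1 and 2 gave ratios of 1.304 and 1.302 in the anti-IgM and 1.12 and 1.12 in the unstimulated miR-148a group, and of 0.728 and 0.752 in the anti-IgM and 0.845 and 0.807 in the unstimulated control group. All 4 miR-148a libraries were above all 4 control libraries, and the mean log2 ratio of Fcgr2b over Fcrla was -0.27 in the miR-148a line and 0.36 in the control line, a difference of -0.63. Of all 36 pairs of members, 4 separated the lines in this way, and this pair had the smallest gap between replicates. The pair was picked out after the ratios were seen, and its values are a description. An exact test compared the lines over 70 regroupings of the libraries, where the smallest p among the pairs was 0.0286. After adjustment over the 36 pairs, 0 had a p under 0.05 in that exact test, and this pair had 0.257.

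**Figure D4:**
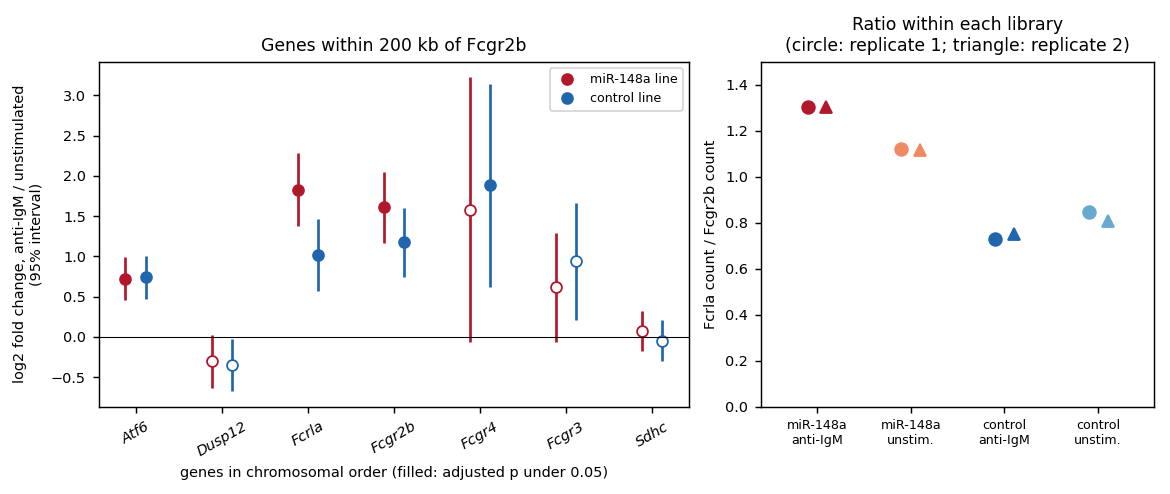
Left, log2 fold change (anti-IgM over unstimulated, 95% interval) of the genes within 200 kb of Fcgr2b that passed the filter, in chromosomal order, filled where the adjusted p is under 0.05. Right, the count of Fcrla divided by that of Fcgr2b in each library, from 1.12 to 1.304 in the miR-148a line and from 0.728 to 0.845 in the control line.

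The pattern of Fcgr2b across the 8 libraries was most like those of Hmg20b (Pearson's r of log2 CPM 0.993), Tap1 (0.990) and Tap2 (0.989), a description over libraries that share groups. Tap1 and Tap2 encode the peptide transporter of MHC class I loading. Hmg20b, Tap1 and Tap2 rose in both lines, Tap1 by 0.85 ± 0.12 in the miR-148a line (edgeR adjusted p = 0.00128) and 0.53 ± 0.11 in the control line (edgeR adjusted p = 0.0162).

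The counts of the 5 lists that follow stand against the same background as the members, 14.7% of all genes higher and 14% lower in the miR-148a line and 9.6% higher and 7.45% lower in the control line, or 46.1% and 34.8% called with the replicate block. Of other inhibitory receptors of B cells and leukocytes, 14 of 24 listed were tested. In the miR-148a line 6 rose (9 with the replicate block), and in the control line 3 rose (7 with the block). None of the 14 fell in either fit. Their median log2 fold change was 0.57 in the miR-148a line and 0.43 in the control line. Pirb, a receptor for MHC class I with inhibitory motifs, rose by 1.71 ± 0.15 in the miR-148a line (edgeR adjusted p = 0.000357) and 0.80 ± 0.15 in the control line (edgeR adjusted p = 0.0102). With anti-IgM Pirb was 77.8 to 92.8 CPM in the miR-148a line and 37.5 to 38.9 CPM in the control line, a difference of 1.16 ± 0.15 (edgeR adjusted p = 0.0137). Pecam1 rose by 1.33 ± 0.18 in the miR-148a line and 0.87 ± 0.18 in the control line, and 4632428N05Rik, the gene for the checkpoint protein VISTA, by 1.92 ± 0.25 in the miR-148a line and 1.07 ± 0.24 in the control line. Cd84 rose by 1.01 ± 0.17 in the miR-148a line. Milr1 and Cd300lf were the other two to rise in that line. Myeloid cells express several of these genes too, and the summed myeloid markers given above were higher with anti-IgM in both lines. Their part in the result was not tested.

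Genes listed as inhibitory effectors, 13 tested of 15, rose in 6 and fell in 1 in the miR-148a line (10 and 2 with the replicate block). They rose in 4 and fell in 0 in the control line (5 and 1 with the replicate block). Their median log2 fold change was 0.43 in the miR-148a line and 0.19 in the control line. The name of the list does not exclude other roles of its genes. Themis2, an adaptor of B cell receptor signalling, rose by 1.56 ± 0.13 in the miR-148a line and 1.13 ± 0.13 in the control line, the phosphatase Ptpn12 by 1.24 ± 0.10 in the miR-148a line and 1.34 ± 0.10 in the control line, and the phosphatase Ptpn22 by 1.03 ± 0.15 in the miR-148a line and 1.11 ± 0.15 in the control line. Lyn and Csk, the kinases that phosphorylate inhibitory motifs and restrain Src kinases, rose by 0.42 ± 0.09 (Lyn) and 0.43 ± 0.10 (Csk) in the miR-148a line, and the phosphatase SHP-2 gene Ptpn11 fell by 0.46 (SE 0.14, edgeR adjusted p = 0.0397). The adaptor Dok3, which brings SHIP to the receptor, rose by 1.22 ± 0.20 in the miR-148a line and 0.74 ± 0.20 in the control line. Between the stimulated lines Ptpn12 was lower in the miR-148a one (-0.50 ± 0.10, edgeR adjusted p = 0.0419).

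Genes of activating signalling, 17 tested of 18, rose in 9 and fell in 1 in the miR-148a line (9 and 2 with the block). In the control line 2 rose and 2 fell (6 and 5 with the replicate block). The control counts without the block were near the background of all genes, and those with the block were above the 34.8% called among all genes. The median log2 fold change was 0.35 in the miR-148a line and 0.11 in the control line. The kinase Blk rose by 0.89 ± 0.22 in the miR-148a line and 0.72 ± 0.21 in the control line. Blnk, the adaptor downstream of Syk, rose by 0.84 ± 0.15 in the miR-148a line. In the control line the kinase Syk fell by 0.58 (SE 0.10, edgeR adjusted p = 0.00739) and the PI3-kinase subunit gene Pik3r1 by 0.39 (SE 0.11, edgeR adjusted p = 0.0394). The kinase gene Prkcb gave -0.44 ± 0.14 in the miR-148a line (edgeR adjusted p = 0.0434) and -0.47 ± 0.14 in the control line (edgeR adjusted p = 0.0502), and Syk gave -0.30 ± 0.10 in the miR-148a line (edgeR adjusted p = 0.055). With anti-IgM, Syk (0.54 ± 0.10, edgeR adjusted p = 0.0382) and the receptor subunit Cd79a (0.52 ± 0.10, edgeR adjusted p = 0.0339) were higher in the miR-148a line.

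Partners of the coreceptor, 9 tested of 12, rose in 2 in the miR-148a line, where 14.7% of all genes were higher. With the replicate block 5 rose there, where 46.1% of all genes were called in either direction. In the control line 1 rose (2 with the replicate block), counts near or below the background of all genes. The counts of so few genes were not tested against that background. The median log2 fold change of these partners was 0.39 in the miR-148a line and 0.012 in the control line. The tetraspanin Cd53 rose by 0.75 ± 0.12 in the miR-148a line and 0.89 ± 0.12 in the control line, and Igsf8, a partner of CD81, by 0.56 ± 0.09 in the miR-148a line. Ligands and glycan enzymes, 11 tested of 12, rose in 5 in the miR-148a line and in 2 in the control line. With the replicate block 7 rose and 1 fell in the miR-148a line, and 5 rose and 1 fell in the control line. The median log2 fold change of this list was 0.47 in the miR-148a line and 0.26 in the control line. Sema4d, whose protein binds CD72, rose by 0.74 ± 0.11 in the miR-148a line and 0.47 ± 0.11 in the control line. Lgals9 rose by 1.09 ± 0.15 in the miR-148a line, and Cmah, which makes the sialic acid form preferred by mouse CD22, by 0.66 ± 0.13 in that line.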

How the data were processed

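The table the authors deposited holds estimated counts by gene symbol, some of them fractional, without normalisation. Among the members, counts of Cd22, Cd72, Fcgr2b and Ceacam1 were fractional in all 8 libraries, and those of Ptpn6 in 6. Tools named per the submitters' processing notes are TopHat2 2.0.13 with Bowtie2, Partek 6.15.0730, CASAVA 1.8, cutadapt and edgeR, and the named builds are GRCm38 and mm10. What each tool did, the annotation and any strand setting (not given in the sources used here) remain unknown, so reads of genes that overlap a member (R74862, Tesk1 and 4732471J01Rik have rows) may not be told apart. Per the labels' protocols the library kit was directional.

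Symbols turned into dates (27 rows, 0.213% to 0.235% of a library's counts) were left out, and counts were rounded. With R 4.3.3, edgeR 4.0.16 was fitted to all 8 libraries with 4 group means (filterByExpr, TMM, 4 residual degrees of freedom), and p-values were adjusted over 11291 genes. Errors after ± are SE of a log2 fold change, or SD where named. Standard errors and 95% intervals were derived from the quasi-likelihood F statistic. Values per replicate pair are log2 CPM differences (pseudocount 0.5). DESeq2 1.42.0, limma 3.58.1, other filters, scalings and left-out libraries were tried as alternatives. The test was checked on simulated data.

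Same-numbered libraries deviated together in every pair of groups (r of their deviations, 0.495 to 0.569). The replicate block and the values per replicate pair therefore use the number to pair libraries. The main calls do not use this pairing, and that fit called fewer genes in every comparison than the fit with the block. Floors cover counting error only. In no group did the replicates agree within sampling noise. Named genes were the 9 members, genes of the lists, and the 3 genes most correlated with the member that rose most in the control line, where no member fell. For the lists, up to 4 called genes per comparison with the largest change were planned. That plan was not followed throughout. Some genes within it are not named, and others outside it are, among them Lyn, Csk, Ptpn11, Milr1 and Cd300lf. Members and lists were chosen with earlier results of these data known. Lists are described by counts and medians, without a set test, and a listed gene is not reported here. Start windows and the microRNA are from RefSeq GRCm38.p6 (all 9 members matched), UTRs and exon lengths from GENCODE M21.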

Additional observations from a re-analysis of the deposited data

How the results depend on the processing

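Of 11 called member results, 8 kept their direction and call in all 14 alternatives: the rises of Cd81, Fcgr2b and Ceacam1 in both lines and of Cd22 and Fcrla in the miR-148a line. The other 3 (Siglecg in the miR-148a line, Fcrla in the control line, Ceacam1 between the stimulated lines) lost their call as given in the report, and none of the 11 changed sign. The count of members called between the unstimulated lines, 0, was 1 by DESeq2, 1 without a filter and 2 with the replicate block. Between the stimulated lines, 1, it was 2 by DESeq2, 2 without a filter, 3 with the block, 0 in the comparison's own 4 libraries, and 0 to 1 when single libraries were left out. In the interaction it was 1 with the block.

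Over all genes, the block gave 3929 calls in the control line (1925 without it), 5205 in the miR-148a line (3238 without it), 823 between the unstimulated (55) and 1822 between the stimulated lines (284), and 11 in the interaction (0, with 484 at an unadjusted p under 0.05). DESeq2 gave 159 between the unstimulated lines and 1 in the interaction. Without a filter there were 179 between the unstimulated and 450 between the stimulated lines, and the comparison's own 4 libraries gave 16 between the stimulated lines. Leaving out single libraries gave 540 to 2082 calls in the control line, 1481 to 3155 in the miR-148a line, 0 to 76 between the unstimulated and 0 to 222 between the stimulated lines. The block changed no call of a member beyond those in the report.

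Some uncalled values changed sign. Ptpn6 in the miR-148a line was 0.00030 with DESeq2's size factors, 4.2e-05 by DESeq2 and 0.011 by limma-voom on unrounded counts (chosen after seeing the data), and Cd72 there was 0.0079 by limma-voom. Leaving out single libraries moved Cr2 (-0.50 to 0.23) and Ptpn6 (-0.11 to 0.037) in the control line, Cd72 (-0.041 to 0.014) and Ptpn6 (-0.096 to 0.077) in the miR-148a line, and Cd72 (-0.11 to 0.064), Siglecg (-0.24 to 0.91) and Ptpn6 (-0.012 to 0.14) between the unstimulated lines. In the interaction it moved Cd81 (-0.050 to 0.051), Siglecg (-0.33 to 0.82) and Ptpn6 (-0.059 to 0.11). The cause was not tested.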
